A study of Mus musculus with 6 samples.

Results

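The genes described are 10 long noncoding RNA genes, followed in peritoneal macrophages of old and young mice. Malat1 and Neat1 encode RNAs that stay in the nucleus, and Gas5, Snhg1, Snhg3, Snhg5, Snhg6, Snhg8, Snhg12 and Snhg15 are hosts of small nucleolar RNAs (snoRNAs). They were chosen by name and looked up by symbol through their Ensembl identifiers, and all 10 had a row among the 19973 Ensembl genes of the deposited table. All 10 passed the filter on low values that left 11795 genes for the test. Every library came from male C57BL/6 mice, a common inbred laboratory strain, aged 18 months (old, 3 libraries) or 2 months (young, 3 libraries). Zymosan A, a yeast cell wall preparation that starts a self-limiting peritonitis, was given into the peritoneum at 200 µg per mouse. Cells were lavaged after 72 hours, cultured overnight in medium containing L-cell medium, freed of unattached cells and kept for 6 hours with the vehicle, phosphate-buffered saline. Only libraries with vehicle were analysed. The labels mention 3 mice per group and triplicate sequencing of each mouse, so the spread between libraries may be partly technical.

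Malat1 RNA collects in nuclear speckles, the storage sites of splicing factors, and its abundant transcript is ended by RNase P cleavage rather than by an ordinary poly(A) tail. Neat1 is the scaffold of paraspeckles, nuclear bodies that hold RNA-binding proteins. It is made as a short polyadenylated form and a long form whose 3′ end resembles that of Malat1. The snoRNA-host genes are transcribed mainly for what lies in their introns: snoRNAs are trimmed from the excised introns and guide the modification or cleavage of ribosomal RNA. The spliced exons of several hosts are exported and removed by nonsense-mediated decay, and several hosts start with a run of pyrimidines as ribosomal protein messages do.

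The 3′ ends of the nuclear RNAs are shown because they bear on how a library that depends on poly(A) reads them. The labels speak of extracted mRNA and of the TruSeq protocol without saying whether poly(A) selection or ribosomal RNA removal was used. Rn7sk, an RNA without a poly(A) tail, had 44284 to 66430 normalized counts per library. Dependence of these libraries on poly(A) was not tested. In the stretches below (GENCODE release M21 transcripts, GRCm38, chromosome 19, minus strand) runs of 4 or more A are in capitals. That of Malat1 covers chr19:5795988-5796047 and ends with the longest run of A of its transcript, 12 bases, with 298 annotated bases still to follow. That of Neat1 covers chr19:5824708-5824767, the last 60 bases of its longest transcript of 20771 bases.
Malat1: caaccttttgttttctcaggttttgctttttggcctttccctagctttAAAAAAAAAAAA
Neat1: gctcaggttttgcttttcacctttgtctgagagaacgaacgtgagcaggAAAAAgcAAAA
Both hold the same 16-base stretch, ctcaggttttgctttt, ahead of the A-rich end.

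The starts of the host genes are shown because a run of pyrimidines there is known from several genes of this kind. Each line gives 20 bases before and 30 bases from the RefSeq start (GRCm38.p6), with the longest unbroken run of C or T, searched on the gene's own strand, in capitals. RefSeq windows were matched for 7 of the 8 hosts and for Malat1, and Gas5 had 2 annotated starts.
Malat1: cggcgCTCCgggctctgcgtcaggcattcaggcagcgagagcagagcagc
Gas5 start 1: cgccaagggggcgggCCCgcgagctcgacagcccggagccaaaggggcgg
Gas5 start 2: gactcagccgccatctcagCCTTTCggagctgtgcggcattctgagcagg
Snhg1: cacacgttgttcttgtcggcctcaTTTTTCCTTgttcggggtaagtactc
Snhg3: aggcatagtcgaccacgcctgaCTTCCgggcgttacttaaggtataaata
Snhg5: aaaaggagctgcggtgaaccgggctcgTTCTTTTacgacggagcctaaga
Snhg8: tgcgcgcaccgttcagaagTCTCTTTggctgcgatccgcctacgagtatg
Snhg12: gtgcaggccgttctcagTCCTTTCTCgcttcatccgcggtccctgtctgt
Snhg15: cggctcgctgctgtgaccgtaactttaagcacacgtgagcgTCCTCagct
The run was 9 bases long in Snhg1 and Snhg12, 7 in Snhg5 and Snhg8, 6 at the second start of Gas5, 5 in Snhg3 and Snhg15, 4 in Malat1 and 3 at the first start of Gas5. The hosts thus ranged from below Malat1 to well above it. A run of at least 7 bases was present in 28.6% of all 32851 RefSeq windows of this length and in 63.1% of 65 windows of ribosomal protein genes. Of the 7 hosts with a window, 4 had one. These are descriptions of letters at annotated starts, not measured start sites.

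Recovered read totals ran from 8163000 to 13008000 per library, and no pair of libraries agreed within sampling noise. The libraries differed in RNA that is not mature message. Table rows of biotype TEC, a GENCODE class of provisional gene models, numbered 1162, and 67.8% of them lie inside a protein-coding gene on the same strand. They took 0.0671%, 0.0633% and 0.207% of reads in old replicates 1, 2 and 3, against 0.236%, 0.212% and 0.0959% in young replicates 1, 2 and 3. Sense-intronic models followed the same order, with 0.00803%, 0.00728% and 0.0239% in old and 0.0275%, 0.0255% and 0.0107% in young libraries. Old replicate 3, young replicate 1 and young replicate 2 thus carried more reads on such models than the other 3 libraries. The table holds no counts of introns, so unspliced RNA is read here only through these models. Old replicate 3 also had 1.34% of reads on rRNA genes other than mitochondrial ones, and the other libraries had 0.0177% to 0.154%. Macrophage markers were abundant at both ages, with summed normalized counts of 345257 to 430483 in old and 274834 to 349804 in young libraries. Most of that sum was Lyz2, with 296549 to 375055 in old and 238297 to 306878 in young libraries (limma adjusted p = 0.22). Of the 8 macrophage markers 6 were called higher and 0 lower in old, against 17.9% higher and 17.6% lower of all tested genes. B cell markers summed to 1632 to 3251 in old and 122 to 127 in young libraries, with 8 of 8 higher in old. Mast cell markers summed to 552 to 630 in old and 46.3 to 71.1 in young libraries, with 5 of 6 tested markers higher in old. T cell, neutrophil and mesothelial or fibroblast lists had 2, 1 and 3 tested markers, of which 2, 1 and 2 were higher in old. The third mesothelial or fibroblast marker, the collagen gene Col1a1, was lower in old at -0.66 (limma adjusted p = 0.00407). The part of these cells in the values below was not tested.

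None of the 10 genes was called different between old and young macrophages in the comparison by age alone. With limma, 0 of 10 passed a Benjamini-Hochberg adjusted p of 0.05, whereas 35.5% of all tested genes passed. At an unadjusted p under 0.05 limma called 0, edgeR 1 (Snhg5) and DESeq2 0 of the 10, and after adjustment edgeR called 0 of the 10 (36.7% of all tested genes) and DESeq2 0 (31.7%). The median log2 fold change, old minus young on the log2(normalized count + 1) scale, was -0.08 over the 10 genes and 0.00 over all tested genes. Behind this lay different patterns: Malat1 and Neat1 varied widely between libraries of the same age, and the hosts stayed nearly level. In these bulk samples, fewer cells of a type and less RNA per cell cannot be told apart.

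**Figure D1:**
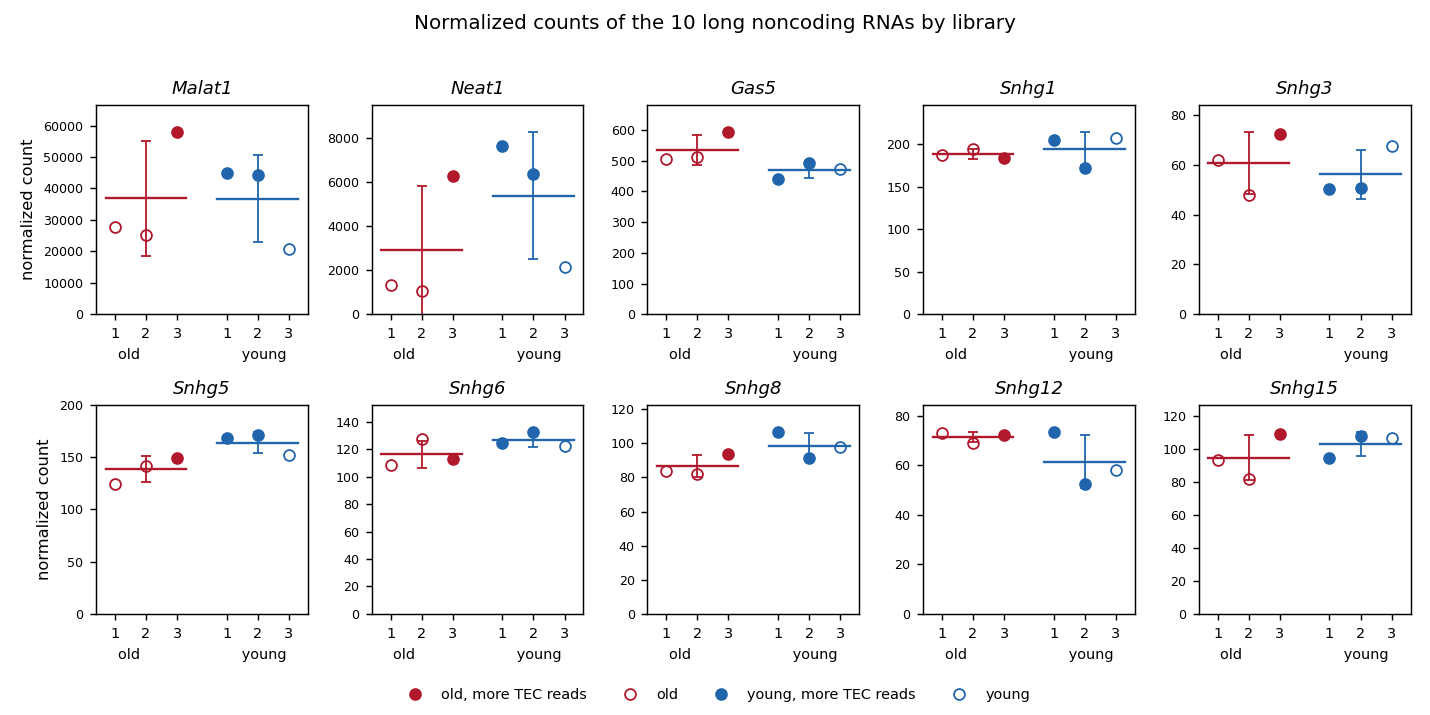
Normalized count (y axis, from 0) of each of the 10 genes in old replicates 1, 2 and 3 and young replicates 1, 2 and 3 (x axis); filled points are the 3 libraries with more reads on TEC gene models, lines are means and bars are SD (n = 3 each), cut at 0 for Neat1 in old. In Malat1 and Neat1 the filled points lie above the open ones at both ages, and so do those of Snhg5 by a small margin, while in the other 7 hosts filled and open points are not ordered this way at both ages.

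Malat1 was the most abundant of the 10. It had 27602, 25153 and 57847 normalized counts in old replicates 1, 2 and 3, against 45067, 44267 and 20757 in young replicates 1, 2 and 3. Old replicate 3 was high among the old, young replicate 3 was low among the young, and the ages overlapped. The old mean was 36867 ± 18210 and the young mean 36697 ± 13810 (SD, n = 3 each). Their log2 fold change was -0.01, with a standard error of 0.36 (limma adjusted p = 0.978). The 95% interval of that difference, -0.83 to 0.80, leaves room for changes in either direction. The sign turned to 0.14 to 0.21 when old replicate 1, old replicate 2, young replicate 1 or young replicate 2 was left out, and the value was -0.39 without old replicate 3.

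Within each age, Malat1 followed the libraries with more TEC reads. In old mice, replicate 3 exceeded the mean of replicates 1 and 2 by 1.13 on the log2 scale, 2.20-fold, which was higher than for 95.4% of tested genes. In young mice, replicates 1 and 2 together exceeded replicate 3 by 1.11, 2.15-fold, higher than for 97.2% of tested genes. The 3 libraries with more TEC reads held 0.558%, 0.457% and 0.438% of their reads on Malat1 (old replicate 3, young replicates 1 and 2) and the other 3 held 0.251%, 0.226% and 0.197% (old replicates 1 and 2, young replicate 3).

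Neat1 moved further still between libraries. It had 1349, 1078 and 6270 normalized counts in old replicates 1, 2 and 3, against 7634, 6378 and 2129 in young replicates 1, 2 and 3. Its highest library held 7.08 times the value of its lowest, and old replicate 3 lay within the young range. The old mean was 2899 ± 2923 and the young mean 5380 ± 2885 (SD, n = 3 each). Their log2 fold change was -1.17, with a standard error of 0.65, a 95% interval of -2.64 to 0.30 and a limma adjusted p of 0.195. Without old replicate 3 the difference was -1.96 and passed (limma adjusted p = 0.000835). Of all 6 libraries left out in turn, this was the only one whose removal changed the call of any of the 10 genes.

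Neat1 followed the TEC reads as well. Old replicate 3 exceeded old replicates 1 and 2 by 2.38 on the log2 scale (5.20-fold), and young replicates 1 and 2 exceeded young replicate 3 by 1.71 (3.28-fold), each a larger difference than in 99.3% of tested genes. The GENCODE transcripts of Neat1 run from 711 to 20771 bases inside a single exonic span (chr19:5824708-5845478, minus strand), so the table cannot separate the short from the long form. A shift of at least 1 on the log2 scale in both ages was seen in 2.70% of all tested genes, in 2 of the 10 genes, and in 227 of 402 tested TEC models. Across the 11795 genes the differences within old and within young had a Pearson correlation of 0.68, a description only, since genes share libraries and are not independent.

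**Figure D2:**
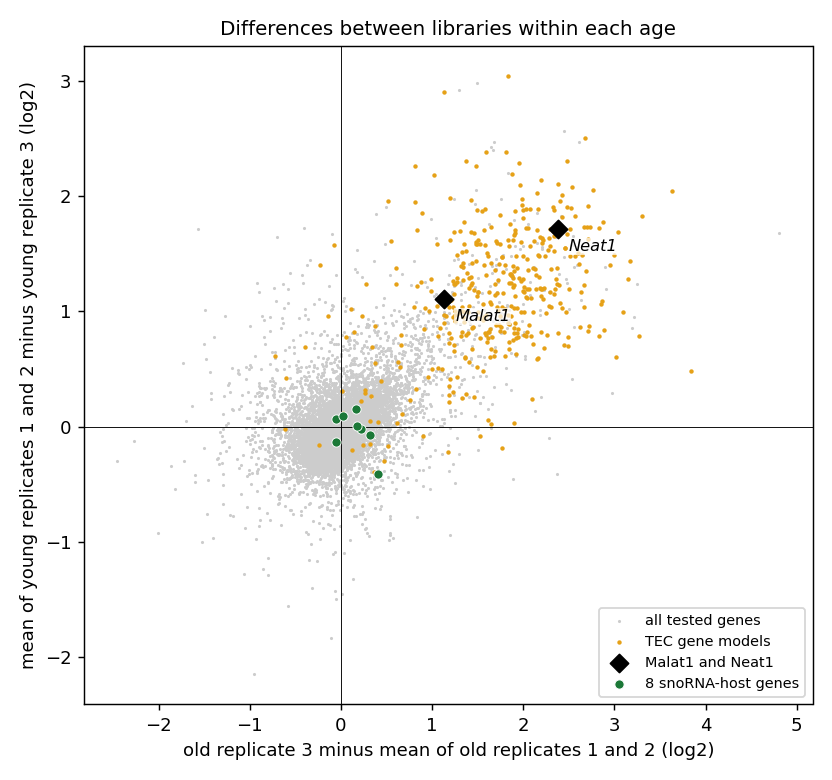
Difference on the log2(normalized count + 1) scale between old replicate 3 and the mean of old replicates 1 and 2 (x axis) and between the mean of young replicates 1 and 2 and young replicate 3 (y axis); points are tested genes. Malat1 and Neat1 lie at 1.13 and 2.38 on the x axis and 1.11 and 1.71 on the y axis, among the TEC gene models, and the 8 hosts lie near the origin.

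Age differences for Malat1 and Neat1 were next taken within each set of libraries, a split known from earlier results of these data. For Malat1, old replicate 3 exceeded the mean of young replicates 1 and 2 by 0.37 on the log2 scale, and the mean of old replicates 1 and 2 exceeded young replicate 3 by 0.34. The direction was higher in old in both sets, unlike the pooled value near 0. For Neat1 the same differences were -0.15 and -0.82, lower in old in both sets but of unequal size.

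In a limma fit with the library set as a second term, 3 of the 10 genes passed, against 47.3% of all tested genes. Malat1 was higher in old at 0.36 ± 0.05 (SE; adjusted p = 1.52e-05), Gas5 was higher at 0.23 ± 0.07 (adjusted p = 0.0151) and Neat1 was lower at -0.49 ± 0.10 (adjusted p = 0.000598). With the log2 TEC share as a covariate instead, where 45.1% of all tested genes passed, Malat1 was at 0.60 ± 0.06 and Gas5 at 0.25 ± 0.08 and both passed, while Neat1 was at -0.01 ± 0.05 (limma adjusted p = 0.927). Of all tested genes 21.3% were then higher and 23.8% lower. Leaving out the 3 libraries with more TEC reads left 2 old libraries and 1 young library, so the spread came from the old pair alone and the young library was assumed to vary like it. On that footing Malat1 stood at 0.34, Neat1 at -0.82 and Gas5 at 0.11. The fit called Malat1 and Neat1 and 41.8% of all tested genes (20.4% higher and 21.4% lower), which is no test of replicated groups. In the fits to all 6 libraries the Neat1 difference thus ran from -0.01 to -0.49 with how the TEC reads entered. The set term leans on the same 6 libraries that defined the set, so these p-values describe these libraries. Old replicate 3, with its rRNA share of 1.34%, is the only old library of its set, and the part of that share in these values was not tested.

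**Figure D3:**
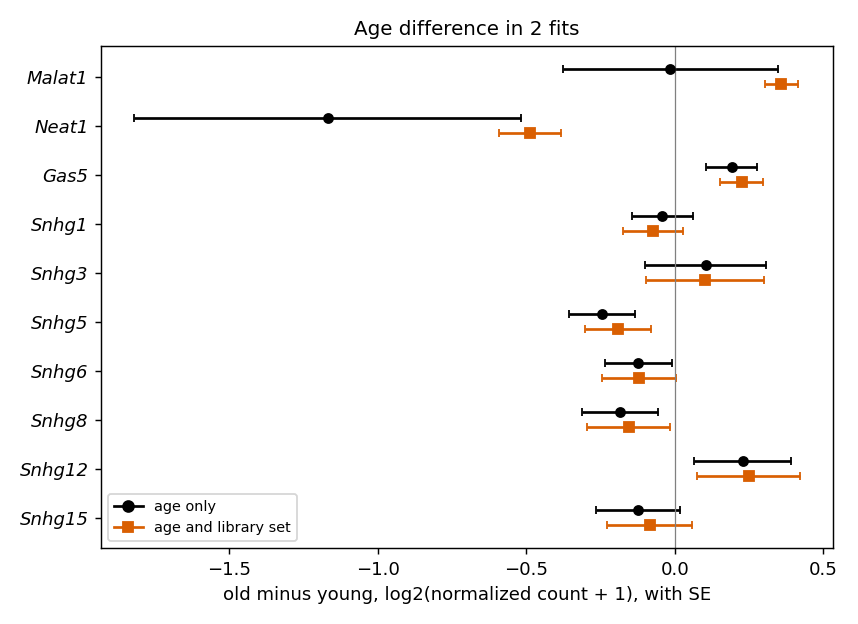
Age difference (x axis, old minus young on the log2(normalized count + 1) scale, bars are SE) of each gene in the fit with age alone (circles) and with age and library set (squares). Malat1 moves from -0.01 to 0.36 and Neat1 from -1.17 to -0.49 with much smaller errors, and the hosts barely move.

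**Figure D4:**
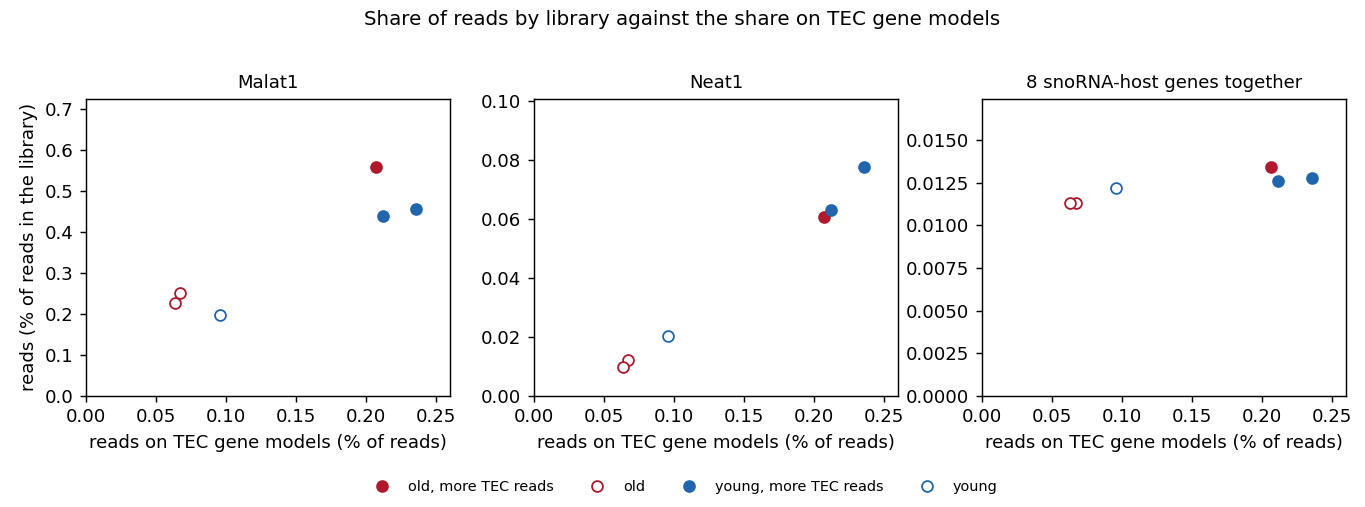
Percent of a library's reads on Malat1, Neat1 and the 8 hosts together (y axes, from 0) against the percent on TEC gene models (x axis), 1 point per library. Malat1 (0.197% to 0.558%) and Neat1 (0.00969% to 0.0775%) separate the 3 libraries with more TEC reads from the other 3, and the hosts stay between 0.0113% and 0.0134%.

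Gas5, the growth arrest-specific host whose spliced RNA builds up when cells stop dividing and binds the glucocorticoid receptor, was the most abundant host. It had 504, 510 and 592 normalized counts in old replicates 1, 2 and 3, against 441, 492 and 472 in young replicates 1, 2 and 3. All old libraries lay above all young ones, by a narrow margin between 504 and 492. The difference was 0.19 ± 0.09 (SE) on the log2 scale, with a 95% interval of -0.01 to 0.39 and a limma adjusted p of 0.120. Gas5 covers chr1:161034422-161038539 on the plus strand and holds 10 annotated snoRNA genes, among them Snord47, Snord78 and Snord80, and none of these 10 had a row in the table.

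A neighbour limits the reading of Gas5. A stretch of 428 bases overlaps Zbtb37, a zinc finger gene on the opposite strand, and whether counting used strand is not given in the sources used here. Zbtb37 had 145, 123 and 276 normalized counts in old and 242, 231 and 183 in young libraries, with the high values in the libraries with more TEC reads. Gas5 itself was 0.22 higher in old replicate 3 than in old replicates 1 and 2 and differed by -0.02 between young replicates 1 and 2 and young replicate 3.

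Hosts of box C/D snoRNAs, which guide 2′-O-methylation of ribosomal RNA, did not pass the test in old against young. Snhg5, host of Snord50a and Snord50b, had 124, 142 and 149 normalized counts in old replicates, against 168, 171 and 152 in young replicates. The libraries with more TEC reads were higher by 0.16 on the log2 scale within old and by 0.16 within young. All old libraries lay below all young ones, with 149 next to 152, at a log2 difference of -0.24 ± 0.11 (SE; limma adjusted p = 0.120; 95% interval -0.50 to 0.01). Snhg5 and Gas5 were the hosts whose ages did not overlap, 1 in each direction, against 47.5% of all tested genes (24.0% higher and 23.6% lower in old).

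Snhg1, which holds 8 annotated snoRNA genes including Snord22, had 188, 195 and 184 normalized counts in old and 205, 173 and 207 in young replicates. The old values lay inside the young range, and the log2 fold change was -0.04 ± 0.10 (SE; limma adjusted p = 0.779), or 0.0038 without young replicate 3. Annotated exons cover 100% of its 2969-base span, and 14 of its 18 GENCODE transcripts retain introns, so reads of unspliced Snhg1 would count here. Old replicate 3 differed by -0.05 from old replicates 1 and 2, and young replicates 1 and 2 by -0.14 from young replicate 3. Snhg6, host of Snord87, had 109, 127 and 113 in old and 125, 132 and 123 in young replicates, with overlapping ages and a log2 difference of -0.12 ± 0.11 (SE; limma adjusted p = 0.428).

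Hosts of box H/ACA snoRNAs, most of which guide pseudouridylation, did not pass either. Snhg8, host of Snora24, had 83.7, 82.1 and 94.0 normalized counts in old and 107, 91.3 and 98.0 in young replicates (log2 fold change -0.19 ± 0.13, SE; limma adjusted p = 0.288). Snhg15, host of Snora9, had 93.2, 82.1 and 109 in old and 94.6, 108 and 106 in young replicates (-0.13 ± 0.14, SE; limma adjusted p = 0.521). In both, the ages overlapped. Snhg12 holds snoRNAs of both classes (Snora16a, Snora44, Snora61 and Snord99) and had 72.9, 69.2 and 72.4 in old and 73.4, 52.6 and 58.3 in young replicates. Young replicate 1 matched the old libraries, and the log2 fold change was 0.23 ± 0.16 (SE; limma adjusted p = 0.303).

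Snhg3 was the host with the widest spread. It had 62.1, 47.9 and 72.4 normalized counts in old replicates 1, 2 and 3, against 50.3, 50.9 and 67.6 in young replicates 1, 2 and 3, or 50 to 80 reads per library. Its highest library was 1.51 times its lowest, and the log2 fold change was 0.10 ± 0.20 (SE; limma adjusted p = 0.720). Within old it was highest in replicate 3, by 0.40, and within young the libraries with more TEC reads were the lower ones, by -0.41. Without old replicate 3 the difference was -0.03, the opposite sign. The span of Snhg3 shares 5592 of its 5673 bases with that of Rcc1, a gene on the same strand whose product drives nuclear transport. Annotated exons cover 17.4% of the Snhg3 span. Exons shared with Rcc1 were not looked for, and reads in any such exon could belong to either gene. Rcc1 had 287, 293 and 262 normalized counts in old and 544, 513 and 553 in young libraries.

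Snhg3 is also the only one of the 8 hosts with an abundantly counted snoRNA. Snora73b (U17b), an H/ACA snoRNA needed for cleavage of the ribosomal RNA precursor, lies inside the span of Snhg3 at chr4:132352322-132352526 on the minus strand. Its sequence (GENCODE release M21) is shown with the ACA box, which stands 3 bases from the 3′ end, in capitals.
Snora73b: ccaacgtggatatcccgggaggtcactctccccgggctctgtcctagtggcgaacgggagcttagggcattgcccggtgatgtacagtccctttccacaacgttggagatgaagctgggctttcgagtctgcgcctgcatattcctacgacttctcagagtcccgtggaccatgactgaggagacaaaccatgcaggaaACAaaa
Snora73b had 611, 698 and 359 normalized counts in old replicates 1, 2 and 3, against 876, 471 and 595 in young replicates 1, 2 and 3. Old replicate 3, where Snhg3 was highest, had its lowest value, and the ages overlapped. Its partner Snora73a, also inside Snhg3, had at most 2.39 normalized counts in any library, and how reads were shared between the 2 copies is not known. Snord87 in Snhg6 had 1.69 to 6.14 normalized counts, and the snoRNA genes inside the other hosts had no row in the table.

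As a class, 3 of the 8 hosts had a positive and 5 a negative fold change, none beyond 0.24 in size. The 95% intervals of all 8 lay between -0.50 and 0.60 on the log2 scale, which is the precision these 6 libraries give. Between the highest and the lowest library the hosts differed 1.20-fold to 1.51-fold. Each host had 50 to 597 reads per library, which limits the precision of each value. In old replicate 3 the hosts ranked between the 48.8th and 87.6th percentile of tested genes for the excess over old replicates 1 and 2, and in young between the 3.03rd and 78.2nd percentile for the excess of replicates 1 and 2. No host shared the shift of Malat1 and Neat1, whose percentiles were 95.4 to 99.3. The age difference had the same sign in both library sets in 6 of the 8 hosts, the exceptions being Snhg3 and Snhg15.

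Per length the genes kept nearly the same order at both ages. In normalized counts per kilobase of annotated exon, Malat1 had 5280 ± 2608 in old and 5255 ± 1978 in young macrophages (SD, n = 3 each). In old libraries Gas5 followed at 142 ± 13.0, then Neat1 at 140 ± 141, Snhg6 at 102 ± 8.51 and Snhg8 at 101 ± 7.59. Snhg5 at 79.9 ± 7.26, Snhg15 at 69.8 ± 10.0, Snhg1 at 63.6 ± 1.84 and Snhg3 at 61.7 ± 12.5 came next, and Snhg12 was last at 29.8 ± 0.826. Neighbours whose mean ± SD ranges stood apart in old were Malat1 and Gas5, Snhg8 and Snhg5, and Snhg3 and Snhg12.

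In young libraries Neat1, at 259 ± 139 per kilobase, stood ahead of Gas5 at 124 ± 6.91, with overlapping ranges. Snhg8 at 116 ± 9.03, Snhg6 at 110 ± 4.57, Snhg5 at 94.6 ± 5.89, Snhg15 at 75.8 ± 5.40, Snhg1 at 65.7 ± 6.48, Snhg3 at 57.1 ± 9.96 and Snhg12 at 25.6 ± 4.47 followed. The ranges stood apart between Malat1 and Neat1, Snhg6 and Snhg5, Snhg5 and Snhg15, and Snhg3 and Snhg12. These levels use the union of annotated exons, which for Neat1 is the long form and understates the level of the short one.

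Genes with the most similar profile over the 6 libraries were looked up for 3 members among 8227 genes with a mean of at least 100. For Malat1 they were Dagla, a diacylglycerol lipase gene, Ube3b, a ubiquitin ligase gene, and Amn1, with Pearson correlations of 0.993, 0.991 and 0.990. For Neat1 they were Fnbp1, Sh2b3 and Rcor3, each at 0.997, and for Gas5 Zfp386 at 0.985, Map4k3 at 0.972 and Ndufb4 at 0.966. High values over 6 libraries were not confined to the named genes. Of the 8227 genes, 131 correlated above 0.9 with Malat1, 336 with Neat1 and 59 with Gas5. The swings of the genes named for Malat1 and Neat1 were smaller than those of these members. Amn1 had 127, 127 and 264 normalized counts in old and 214, 191 and 110 in young libraries, while Ube3b ranged from 834 to 922. For Gas5 they were not all smaller, as Map4k3 ran from 586 to 861 and Gas5 from 441 to 592.

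Other snoRNA-host noncoding genes also had no call in the age comparison. Of 16 listed, 11 had a row and 5 were tested, with a median log2 fold change of -0.21. In limma 0 of the 5 passed, against 35.5% of all tested genes. The most abundant were 1110038B12Rik and Snhg17. 1110038B12Rik averaged 152 ± 20.7 normalized counts in old and 186 ± 7.26 in young (SD, n = 3 each; limma adjusted p = 0.0841). Snhg17 had 129, 111 and 212 in old and 185, 223 and 135 in young replicates, so this host did run higher in the libraries with more TEC reads, by 0.82 within old and 0.58 within young. Without old replicate 3, 2 of the 5 were called lower, as were 2888 genes over all.

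Among 16 other tested nuclear or long noncoding RNAs, 1 was higher and 3 were lower in old, with a median of -0.18. The share lower was near the 17.6% of all tested genes, of which 17.9% were higher. With the library set as a term 4 were higher and 5 lower, against 22.9% higher and 24.5% lower of all tested genes. With the TEC covariate 5 were higher and 3 lower, against 21.3% higher and 23.8% lower of all tested genes. Pvt1, a noncoding neighbour of Myc, fell to 33.3 ± 7.39 normalized counts in old, against 82.9 ± 17.3 in young ones (log2 fold change -1.29 ± 0.23, SE; limma adjusted p = 0.00211). Rn7sk, the 7SK RNA that holds the elongation factor P-TEFb inactive, rose to 62422 ± 6203 in old, against 47085 ± 3064 in young (0.40 ± 0.12, SE; limma adjusted p = 0.0320). Rmrp, the RNA of RNase MRP, averaged 13585 ± 3062 in old, against 21603 ± 5954 in young (-0.66 ± 0.21, SE, limma adjusted p = 0.0335). Its ages overlapped, with 16921 in old replicate 2 and 16600 in young replicate 3. Its difference was -1.12 between old replicate 3 and young replicates 1 and 2. Between old replicates 1 and 2 and young replicate 3 it was -0.17.

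The last of these called genes, singled out after its values were seen, was Kcnq1ot1, a nuclear RNA that silences an imprinted domain. It had 271, 292 and 975 normalized counts in old and 1488, 1357 and 722 in young replicates (-1.41 ± 0.45, SE; limma adjusted p = 0.0373), high again where TEC reads were high. Over the list the median excess of old replicate 3 was 0.82 and that of young replicates 1 and 2 was 0.70, against -0.05 and -0.04 over all tested genes. Rn7sk ran the other way at both ages, at -0.26 and -0.15, and so did 2900097C17Rik at -0.15 and -0.12. Rmrp was at -0.44 within old and 0.52 within young, and Rpph1 at -0.29 and 0.07. Of these, 2900097C17Rik and Rpph1 were named after their values were seen. Tug1, also chosen afterwards, stayed level, with 803, 767 and 894 in old and 740, 833 and 813 in young replicates. Leaving out 1 library gave 0 to 2 genes higher and 1 to 6 lower on this list. The fewest were lower when old replicate 1 or either of young replicates 1 and 2 was dropped, and the most without old replicate 3. Over all genes it gave 1444 to 2772 higher and 1486 to 2888 lower, also the most without old replicate 3.

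Transcripts for proteins of the bodies that Malat1 and Neat1 occupy were lower in old in part. Of 25 paraspeckle protein genes tested, 0 were higher and 11 lower, with a median of -0.22, against 17.9% higher and 17.6% lower of all tested genes. Hnrnpa1, a splicing repressor, fell to 781 ± 16.9 normalized counts in old, against 1260 ± 83.4 in young (SD, n = 3 each; a log2 difference of -0.69, limma adjusted p = 7.18e-05). Hnrnpul1 fell by 0.60 on the log2 scale and Hnrnpm, a splicing regulator, by 0.43. Of 20 genes for nuclear speckle and Malat1-associated proteins, 1 was higher and 11 lower, with a median of -0.29. Pnn (pinin), a speckle protein, fell to 335 ± 38.6, against 539 ± 20.1 in young (-0.69, limma adjusted p = 0.000418). Scaf11 fell by 0.48 and the splicing factor gene Srsf2 by 0.41. Without young replicate 2, 7 of the speckle genes were lower, and over all genes 1486 were, against 2076 with all 6 libraries. The call of the single higher speckle gene was lost without old replicate 1 or 2 or young replicate 1 or 2.

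Genes of the machinery that acts on host transcripts moved less uniformly. Of 18 nonsense-mediated decay factors, 1 was higher and 6 lower in old, with a median of -0.18, against 17.9% higher and 17.6% lower of all tested genes. With the library set as a term 1 was higher and 12 were lower, against 22.9% higher and 24.5% lower of all tested genes. With the TEC covariate 2 were higher and 11 lower, against 21.3% higher and 23.8% lower of all tested genes. The helicase gene Upf1 fell to 930 ± 83.8 normalized counts in old, against 1293 ± 71.4 in young (SD, n = 3 each; a log2 difference of -0.48, limma adjusted p = 0.00182). Smg5 fell by 0.41, and the helicase gene Dhx34 rose by 0.68 (limma adjusted p = 0.000940). Of 15 snoRNP protein genes, which package box C/D and H/ACA snoRNAs or assemble those particles, 1 was higher and 0 lower, with a median of 0.11. The higher one was Ruvbl1, an assembly ATPase gene, at 0.35 (limma adjusted p = 0.0311). Without old replicate 1, old replicate 2 or young replicate 1 no snoRNP gene was higher, with 1444, 1474 and 1598 genes higher over all. Without old replicate 3 there were 3, with 2772 genes higher over all. Without old replicate 2 or young replicate 2, 3 decay factors were lower, with 1664 and 1486 genes lower over all.

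Messages of the class known to start with a pyrimidine run were mostly without a call in the comparison by age alone. Their calls changed with how the library difference entered the fit. Of 76 tested cytosolic ribosomal protein genes, 0 were higher and 1 lower, Rpl13a at -0.47 (limma adjusted p = 0.00339), with a median of 0.03, against 17.9% higher and 17.6% lower of all tested genes. Many ribosomal protein genes have processed copies in the genome, so their counts depend on how shared reads were assigned. Of 21 tested translation factor and other messages of this class, 0 were higher and 3 lower, with a median of -0.01. They were Pabpc1, the cytoplasmic poly(A)-binding protein gene, at -0.88, Hnrnpa1, which is also counted above, and the histone chaperone gene Nap1l1 at -0.35. With the library set as a term, 1 of the 76 ribosomal protein genes was called higher and 21 lower, and 7 of the 21 other messages were lower. Of all tested genes 22.9% were then higher and 24.5% lower, so the share of ribosomal protein genes called lower was near that of all genes. With the TEC covariate 37 ribosomal protein genes and 9 of the other messages were lower and 0 of either were higher, against 21.3% higher and 23.8% lower of all tested genes. Without old replicate 3, 25 ribosomal protein genes and 4 of the other messages were called higher, as were 2772 genes over all.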

How the data were processed

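The authors deposited 1 table of normalized counts for the 6 libraries, a signal in which each count had been divided by a factor of its library. DESeq2 and mm10 are named by the submitters' processing notes. For the aligner, the counter, the annotation release and strand use the answer is: not given in the sources used here. All values were whole multiples of 1 step per library (tolerance 0.01 reads, 100% of values), which gave whole reads. For young replicate 1 the step is so near 1 that multiples of it are hard to tell from rounding, so the count tests are alternatives only. Symbols, biotypes and positions came from GENCODE M21 on GRCm38, the assembly that mm10 names: 19917 identifiers matched and 56 did not.

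Old and young were compared with limma 3.58.1 (R 4.3.3), with a variance trend, on log2(normalized count + 1). A mean of at least 10 left 11795 genes. P-values were adjusted over all of them with Benjamini-Hochberg, and single-gene adjusted p-values are from limma. edgeR 4.0.16 and DESeq2 1.42.0 on the recovered reads were alternatives. The fit was tested on simulated counts. They held no shared difference between library sets, so that test does not cover the library difference described above. Within an age, library pairs differed by a median chi-square of 1.49 to 4.69 times sampling noise, so none were merged.

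The members, the gene lists and the library set were chosen with earlier results of these data known. Other genes were named by rule: up to 3 called members of a list with the smallest adjusted p, or the 2 most abundant where none passed. Exceptions are marked.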

Additional observations from a re-analysis of the deposited data

How the results depend on the processing

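Each gene was refitted under 19 alternatives. Gas5, Neat1, Snhg5, Snhg6, Snhg8, Snhg12 and Snhg15 kept their sign in all of them. For Neat1 that sign stood on a value near 0 with the TEC covariate, -0.0072 ± 0.053 (SE; limma adjusted p = 0.927). Malat1 turned positive with median centring (0.039), DESeq2 (0.0019), the library set as a term (0.36), the TEC covariate (0.60), without the 3 libraries with more TEC reads (0.34), and without old replicate 1 (0.14), old replicate 2 (0.21), young replicate 1 (0.18) or young replicate 2 (0.16), and was -0.39 without old replicate 3. Snhg1 turned positive with quantile normalization (0.020), median centring (0.013) and without young replicate 3 (0.0038), and ran down to -0.13 with 1 library left out. Snhg3 turned negative without old replicate 3 (-0.030) and without the 3 libraries (-0.30), and ran up to 0.26 with 1 library left out. The cause was not tested. With 1 library left out, members called higher stayed at 0 and members called lower ran from 0 to 1. Without the 3 libraries, 1 member was called higher (Malat1) and 1 lower (Neat1, -0.82), with 1 young library assumed to vary like the old ones. With the library set as a term 2 were higher and 1 lower, and with the TEC covariate 2 were higher. Over all genes, leaving out 1 library gave 1444 to 2772 higher and 1486 to 2888 lower. Median centring gave 2724 higher and 1790 lower, against 2107 and 2076.

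Deviations within age of same-numbered libraries correlated at -0.38, -0.36 and -0.68. The difference between the library sets enters these values, so they cannot tell whether libraries were paired by number. With the replicate number as a block, 1281 genes were called higher and 1362 lower, members called stayed at 0 in each direction, and no library correlated best with its own number. Depth limits the hosts, with 50 to 597 reads per library.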
